A study of Mus musculus with 6 samples.

Results

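The natriuretic peptide receptors Npr1, Npr2 and Npr3, the peptide ligand gene Nppc and the cyclic GMP (cGMP) dependent kinases Prkg1 and Prkg2 were examined in primary calvarial osteoblasts by RNA sequencing. These 6 genes, of 55471 genes in the deposited count table, were chosen by name for their shared signalling route, with their levels in the same 6 libraries already known. All 6 were found in the table. Their values in the 2 genotypes are therefore given as a description, with no test. Osteoblasts are the cells that lay down bone matrix, and here they were isolated from the parietal bone of the skull of 3-day-old C57BL/6 mice and cultured for 3 days. The libraries labelled TCKO came from mice carrying Prx1-Cre with loxP-flanked alleles at all of the genes Tet1, Tet2 and Tet3 (fl/fl), and the libraries labelled WT came from wild type mice of that strain and age. Each genotype had 3 libraries, and the labels do not state whether these came from separate mice or cultures, so the p-values below measure the spread between these libraries, which may be technical. Prx1-Cre is a recombinase transgene active in limb and part of the skull mesenchyme, so cells in which it was never active keep intact Tet genes. The labels do not say whether the WT mice carried loxP-flanked alleles or the Cre.

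TET enzymes oxidise methylated cytosine in DNA. C-type natriuretic peptide, the product of Nppc, binds Npr2, a receptor whose inner domain is a guanylyl cyclase that makes cGMP. Npr1 is the related cyclase receptor for atrial and B-type natriuretic peptides, and Npr3 is a receptor without a cyclase domain that takes up and removes natriuretic peptides and can couple to Gi proteins. cGMP activates the protein kinases encoded by Prkg1 and Prkg2, and the route through Npr2 and Prkg2 is known for promoting the growth of long bones through growth plate cartilage.

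Total counts per library ran from 8019999 to 10177214. Of the targeted genes, Tet1 had between 98 and 131 counts in WT and between 51 and 68 in the libraries labelled TCKO, Tet2 overlapped between genotypes, and Tet3 had higher levels in TCKO (452 to 611 counts against 622 to 795). These counts cover all exons, so they do not isolate the deleted ones, and directions here rest on the labels. Replicates 1 and 2 of each genotype were nearly alike, with a biological coefficient of variation of 3.00% in WT and 3.62% in TCKO, while their pairs with replicate 3 had values between 16.4% and 18.4%. Both replicate 3 libraries had a higher mitochondrial share of counts (2.22% and 2.47%, against 1.11% to 1.24%), and TCKO replicate 3 alone had high Xist (4583 counts) and no Ddx3y count. Of the osteoblast markers, Col1a1, Col1a2, Sparc and Spp1 were abundant. Bglap and Dmp1, markers of mature osteoblasts and osteocytes, had at most 3 counts in any library.

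Npr3, the clearance receptor, showed the largest difference among the 4 of these genes that passed the filter on low counts. Counts were 1486, 1869 and 1609 for WT (replicates 1, 2 and 3, the order used throughout) against 307, 236 and 258 for TCKO. As CPM (counts scaled to a library of 1000000, with TMM factors), the level was 180, 187 and 195 for WT against 35.0, 29.3 and 28.9 for TCKO. Every TCKO library lay far below every WT library, and the mean was 187 ± 7.58 CPM for WT against 31.1 ± 3.42 CPM for TCKO (SD, n = 3). The log2 fold change of Npr3, TCKO minus WT, was -2.59 ± 0.10 (SE), or 6.01-fold lower in TCKO, the 60th lowest of the 13826 genes that passed that filter. In bulk RNA, fewer cells of a type and less RNA per cell cannot be told apart. Npr3 (ENSMUSG00000022206) spans chromosome 15, 11839896 to 11907287, on the minus strand of GRCm38, with 9389 bp of exons.

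Npr2, the cyclase receptor for C-type natriuretic peptide, had the highest level of the 6 per kilobase of exon in both genotypes. Counts were 1577, 1809 and 1501 for WT against 1176, 1070 and 1319 for TCKO. The level of Npr2 was 191, 181 and 182 CPM for WT against 134, 133 and 148 CPM for TCKO. The genotypes did not overlap, but the distance between them was small next to that of Npr3, with means of 184 ± 5.65 CPM and 138 ± 8.30 CPM (SD, n = 3). Its log2 fold change was -0.41 ± 0.07 (SE), or 1.33-fold lower in TCKO, the 1989th lowest of the 13826 genes. Npr2 (ENSMUSG00000028469) spans chromosome 4, 43631935 to 43651244, on the plus strand, with 4667 bp of exons. The antisense gene Gm12473 shares 266 bp of exon with Npr2 on the other strand. The WT libraries gave Gm12473 106, 138 and 103 counts and the TCKO libraries 92, 70 and 81, between 6.14% and 7.82% of the Npr2 count. The sources used here do not state whether counting used strand, so reads from these overlapping exons cannot be assigned with certainty.

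The DNA just upstream of these receptor genes is shown because TET enzymes act on methylated cytosine, mostly at CG dinucleotides (CpG). The letters are the 250 bases before the RefSeq transcript start, written 5′ to 3′ on the strand of the gene in GRCm38.p6, with each CpG in capitals. The Npr2 stretch is chr4:43631685-43631934 on the plus strand, and the Npr3 stretch is chr15:11907372-11907621 on the minus strand.
Npr2: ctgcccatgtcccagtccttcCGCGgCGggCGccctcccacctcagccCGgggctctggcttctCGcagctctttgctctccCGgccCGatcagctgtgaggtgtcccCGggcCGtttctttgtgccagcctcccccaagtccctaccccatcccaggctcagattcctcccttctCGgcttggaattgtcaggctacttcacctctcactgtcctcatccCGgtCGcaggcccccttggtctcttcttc
Npr3: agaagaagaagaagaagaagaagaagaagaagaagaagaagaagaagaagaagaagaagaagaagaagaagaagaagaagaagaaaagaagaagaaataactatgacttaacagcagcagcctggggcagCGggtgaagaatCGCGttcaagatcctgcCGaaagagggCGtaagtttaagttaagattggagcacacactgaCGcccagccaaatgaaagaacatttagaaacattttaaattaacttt

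The Npr2 stretch held 13 CpG and 64.4% G and C, and 68.5% of the 32851 windows of this length in the RefSeq table had fewer CpG. The Npr3 stretch held 6 CpG, the median of all windows, and 38.8% G and C, and it began within a run of 27 AAG triplets (81 bases). The RefSeq start of Npr3 lies 84 bases upstream of the start in the deposited table. Nppc and Npr1 had 24 and 21 CpG, and the windows at the 2 RefSeq starts of Prkg1 had 9 and 16, against quartiles of 2 and 16 over all windows. Prkg2 was without a window, so 5 of the 6 genes were matched. The core motif of RUNX factors, TGTGGT or ACCACA on the other strand, was found once in the Npr1 window and in none of the other 5 windows, while 14.0% of all windows held it. DNA methylation was not analysed here, and these windows describe sequence only.

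Npr1 and Nppc were near the limit of detection. The WT libraries held 2, 4 and 5 counts of Npr1 and the TCKO libraries 5, 4 and 9, or 0.242, 0.399 and 0.606 CPM against 0.571, 0.497 and 1.01 CPM. The genotypes overlapped. Summed over libraries, Npr1 had 11 counts in WT (95% exact Poisson interval 5.49 to 19.7) and 18 in TCKO (10.7 to 28.4), a ratio of CPM of 1.69 with an interval of 0.755 to 3.95. The interval is wide at this depth, and no conclusion on a difference is drawn from it. For Nppc the WT libraries held 1, 0 and 0 counts and the TCKO libraries 0, 1 and 1, all under a floor of 3 counts, the mean count that an observed 0 still allows, so no fold is given. That floor corresponded to between 0.299 and 0.373 CPM per library, and the floors and intervals cover counting error only. Nppc (ENSMUSG00000026241) spans chromosome 1, 86666291 to 86670571, and Npr1 (ENSMUSG00000027931) chromosome 3, 90450591 to 90465866, both on the minus strand. The genes on the other strand that share exon bases with Npr1 (Gm16048, 559 bp) and Npr3 (Gm5144, 321 bp) had at most 2 counts in any library. Gm16048 is annotated as antisense and Gm5144 as a noncoding RNA gene at a bidirectional promoter. The span of Gm5144, 11906519 to 11907464 on chromosome 15, reaches into the Npr3 stretch shown above.

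Prkg2, which encodes the membrane-anchored cGMP kinase II, was the member with higher levels in TCKO. Counts were 213, 262 and 243 for WT against 1090, 1011 and 801 for TCKO. The level of Prkg2 was 25.8, 26.1 and 29.5 CPM for WT against 124, 126 and 89.8 CPM for TCKO. All TCKO libraries lay above all WT libraries, and TCKO replicate 3 was the lowest of the TCKO libraries. The means were 27.1 ± 2.02 CPM and 113 ± 20.3 CPM (SD, n = 3). Prkg2 thereby had a log2 fold change of 2.06 ± 0.14 (SE), or 4.18-fold, the 148th highest of the 13826 genes. Prkg2 (ENSMUSG00000029334) spans chromosome 5, 98929773 to 99037351, on the minus strand, with 5369 bp of exons. The processed pseudogene Gm3470 lies within it on the same strand and shares no exon base with it. The WT libraries gave Gm3470 28, 18 and 40 counts and the TCKO libraries 63, 82 and 78, equal to between 5.78% and 16.5% of the Prkg2 count.

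Prkg1, which encodes the soluble cGMP kinase I, did not separate the genotypes. Counts were 657, 716 and 351 for WT against 429, 340 and 522 for TCKO. The level of Prkg1 was 79.5, 71.5 and 42.5 CPM for WT against 49.0, 42.3 and 58.6 CPM for TCKO. WT replicates 1 and 2 were the highest and WT replicate 3 lay inside the TCKO range. The means were 64.5 ± 19.5 CPM and 49.9 ± 8.19 CPM (SD, n = 3), and the log2 fold change was -0.37 ± 0.23 (SE). Prkg1 (ENSMUSG00000052920) spans 1200545 bp of chromosome 19, 30564489 to 31765033, on the minus strand, with 11036 bp of exons. Cstf2t, an mRNA cleavage factor gene inside this span on the other strand, shares no exon base with Prkg1 and had between 506 and 764 counts.

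**Figure D1:**
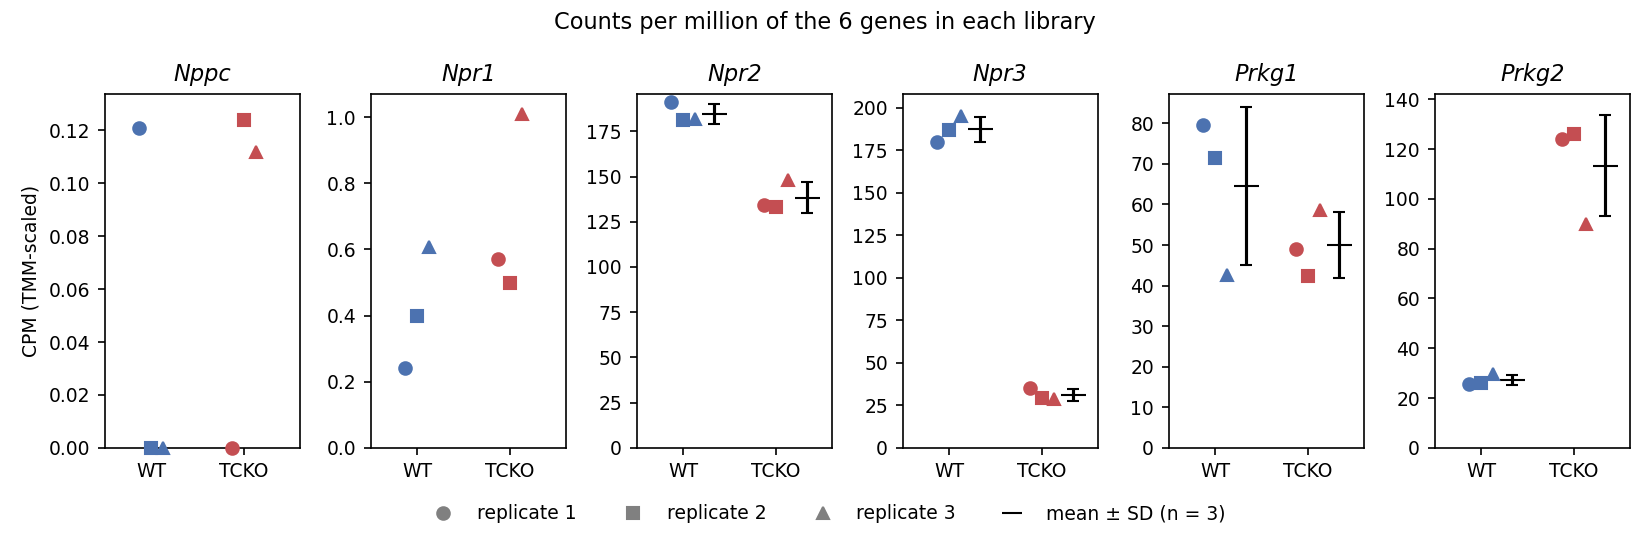
TMM-scaled CPM (vertical axes, each from 0 and with its own range) of Nppc, Npr1, Npr2, Npr3, Prkg1 and Prkg2 in the WT and TCKO libraries, with 1 point per library, marker shape for the replicate number, and black bars for the mean ± SD (n = 3) of the 4 genes that passed the filter. The WT and TCKO points are apart for Npr2, Npr3 and Prkg2, with Npr3 at 180 to 195 in WT and 28.9 to 35.0 in TCKO, and they overlap for Nppc, Npr1 and Prkg1.

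Of the 6 genes, 4 passed the filter on low counts (Npr2, Npr3, Prkg1 and Prkg2), and the libraries of the genotypes did not overlap for 3 of those 4. Of all 13826 tested genes, 38.3% did not overlap between genotypes. Since the genes were chosen with these values known, nothing is read from this count.

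The WT and TCKO libraries also differed in the order of the levels. Levels of different genes were compared per length, as RPKM (CPM per kilobase of exon). The deposited length sums all exons of a gene, and which transcripts were present was not examined, so the orders depend on that length. In CPM, the WT means of Npr2 (184) and Npr3 (187) were alike. In WT the mean RPKM was 39.5 ± 1.21 for Npr2, 19.9 ± 0.808 for Npr3, 5.85 ± 1.76 for Prkg1 and 5.05 ± 0.377 for Prkg2 (SD, n = 3). Prkg1 and Prkg2 overlapped in WT, at 3.86 to 7.21 and 4.80 to 5.49 RPKM, and the other neighbours among these 4 did not. In TCKO the order was Npr2 at 29.7 ± 1.78 RPKM, Prkg2 at 21.1 ± 3.79, Prkg1 at 4.52 ± 0.742 and Npr3 at 3.31 ± 0.364 (SD, n = 3), with no overlap between neighbours. Npr1 and Nppc stood last in both genotypes with mean levels of at most 0.145 RPKM, and they overlapped each other. The RPKM of Npr3 exceeded that of 80.1% of tested genes in WT and 36.0% in TCKO, and that of Prkg2 exceeded 46.8% in WT and 81.1% in TCKO. Npr2 stayed above 90.0% of tested genes in WT and 86.5% in TCKO.

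Within each library, the ratio of RPKM values set the clearance receptor against the cyclase receptor. The Npr3 to Npr2 ratio was 0.468, 0.514 and 0.533 in WT and 0.130, 0.110 and 0.0972 in TCKO, with means of 0.505 ± 0.0331 and 0.112 ± 0.0164 (SD, n = 3). Npr2 exceeded Npr3 per length in every library, by a wider margin in TCKO. The Prkg2 to Prkg1 ratio was 0.666, 0.752 and 1.42 in WT and 5.22, 6.11 and 3.15 in TCKO, with means of 0.947 ± 0.414 and 4.83 ± 1.52 (SD, n = 3). Per length, Prkg1 was the higher kinase gene in WT replicates 1 and 2, and Prkg2 in WT replicate 3 and all TCKO libraries. In CPM, Prkg1 was the higher in WT replicate 3 too (42.5 against 29.5), and Prkg2 in all TCKO libraries.

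**Figure D2:**
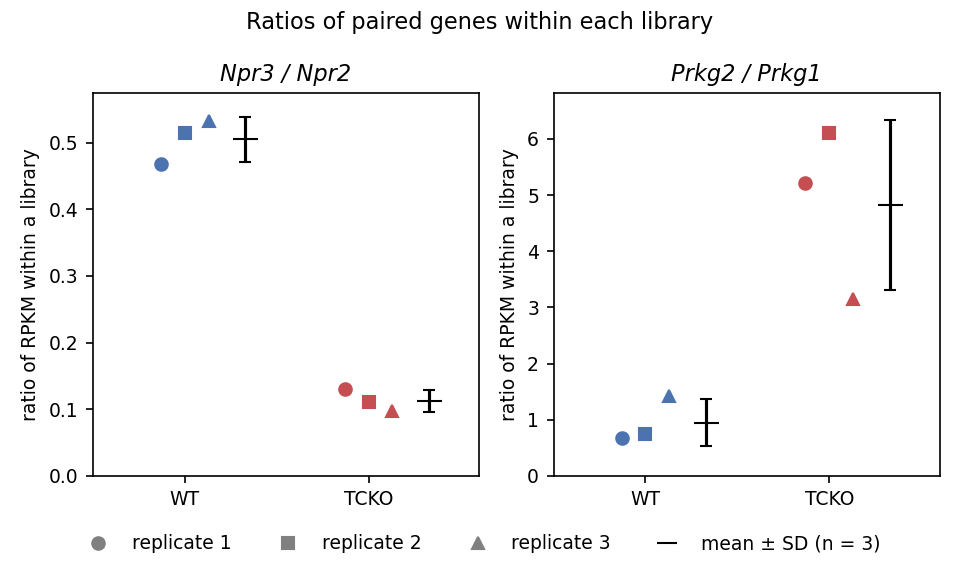
Ratio of RPKM values within each library for Npr3 over Npr2 and for Prkg2 over Prkg1 (vertical axes), with 1 point per library by genotype and black bars for the mean ± SD (n = 3). The Npr3 to Npr2 ratio lies between 0.468 and 0.533 in WT and between 0.0972 and 0.130 in TCKO, and the Prkg2 to Prkg1 ratio lies between 0.666 and 1.42 in WT and between 3.15 and 6.11 in TCKO.

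Because replicate 3 stood apart, differences were also taken within replicates, as log2 of CPM plus 2. In replicates 1 and 2 they were -2.44 for Npr3, -0.47 for Npr2 and 2.18 for Prkg2, and in replicate 3 they were -2.67, -0.29 and 1.55, so the direction of these genes was shared. For Prkg1 the difference was -0.70 in replicates 1 and 2 and 0.44 in replicate 3. The direction given for Prkg1 is thus that of replicates 1 and 2. The replicate 3 pair, 1 library against 1, also differed in Xist (2 counts for WT against 4583 for TCKO) and Ddx3y (936 against 0). The part of this in the replicate 3 values was not tested.

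**Figure D3:**
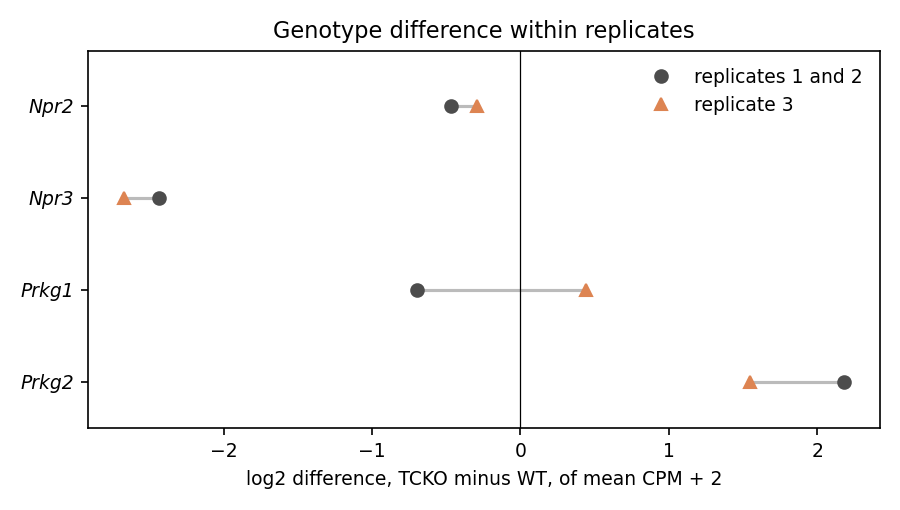
Difference between genotypes (horizontal axis, log2 of mean CPM + 2, TCKO minus WT) for Npr2, Npr3, Prkg1 and Prkg2, taken from replicates 1 and 2 (circles) and from replicate 3 (triangles). Both symbols lie on the same side of 0 for Npr2, Npr3 and Prkg2, and on opposite sides for Prkg1 (-0.70 and 0.44).

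The genes of most like pattern were found by the root mean square distance between log2 CPM values of the 6 libraries, each gene centred on its own mean, among 10952 tested genes with a mean of at least 50 counts. For Npr3 these were Calhm5 (distance 0.143 on the log2 scale) and Arsi (0.158), and for Prkg2 they were Cntfr, a cytokine receptor subunit (0.151), and Ahr, the aryl hydrocarbon receptor (0.153). For Npr2 they were Lmna, which encodes nuclear lamins A and C (0.0280), and Triap1 (0.0303). For Prkg1 they were Irs1, an adaptor of insulin receptors (0.0789), and Jag1, a Notch ligand (0.0821). The distance describes likeness over the 6 libraries only.

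The other genes of the route were described from a list of 55 genes, of which 24 passed the filter. In the edgeR quasi-likelihood fit over all genes, 2 of the 24 rose in TCKO (Furin and Vasp), 0 fell and 22 did not pass, and none passed with a fold change over 2. The shares of 8.33% higher and 0% lower stood beside 9.07% and 8.63% of all tested genes at the same adjusted p under 0.05, and with a fold change over 2 in addition 3.16% of all tested genes were higher and 3.19% lower. Other genes of the list given with values below, apart from the 5 of highest RPKM in WT, were picked after their values were seen. At an unadjusted p under 0.05, 4 of the 24 were higher and 6 lower. No share of all genes was taken for this count, so nothing is read from it. DESeq2 called 2 of the 24 higher and 1 lower (Pde3a), beside 1260 higher and 1181 lower of all 13826 genes. The median log2 fold change of the 24 was -0.02, against 0.00 over all tested genes, and 7 of them (29.2%) did not overlap between genotypes, against 38.3% of all. With the replicate number as a block, 2 were higher and 4 lower, beside 1664 higher and 1585 lower of all 13826 genes. Those lower were Pde3a (log2 fold change -0.70, adjusted p = 0.00543, edgeR with Benjamini-Hochberg adjustment), Abcc5 (-0.28, 0.0378), Cngb1 (-0.99, 0.0483) and Ostn (-1.46, 0.0488). With the block and replicates 1 and 2 summed, Pde3a passed (-0.76, edgeR adjusted p = 0.0407), while Abcc5, Cngb1 and Ostn did not. Of all genes, 584 were then higher and 566 lower.

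Among ligands and the enzymes that process or remove them, 4 of 7 genes were tested and 1 rose. Furin, a proprotein convertase that cleaves the C-type natriuretic peptide precursor (chromosome 7, 80388585 to 80405436), had counts of 1430, 1723 and 1552 for WT against 2145, 2011 and 2203 for TCKO. Its level was 173, 172 and 188 CPM for WT against 245, 250 and 247 CPM for TCKO, so every TCKO library was above every WT library. The log2 fold change was 0.48 ± 0.07 (SE; adjusted p = 0.00347, edgeR with Benjamini-Hochberg adjustment). Ostn, whose product osteocrin is a ligand of Npr3, had counts of 22, 29 and 17 for WT against 9, 13 and 2 for TCKO, and its log2 fold change of -1.43 ± 0.51 (SE) did not pass (edgeR adjusted p = 0.0940). Mme (neprilysin) and Ide, peptidases that degrade natriuretic peptides, had log2 fold changes of 0.17 ± 0.20 and 0.08 ± 0.12 (SE) and did not pass either. Nppb, the gene of B-type natriuretic peptide, did not pass the filter and is named after its values were seen. Counts were 0, 0 and 2 for WT against 21, 18 and 3 for TCKO, so the difference lay in replicates 1 and 2, and replicate 3 gave 2 counts against 3. Its sums of 2 and 42 counts gave a ratio of CPM of 21.7 with a 95% exact interval of 5.63 to 185, which covers counting error only. Nppa, the gene of atrial natriuretic peptide, had at most 2 counts in any library.

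RNA of other guanylyl cyclase genes was scarce next to that of Npr2, and cGMP itself was not measured. Npr2 made up 98.2%, 97.8% and 98.8% of the summed RPKM of 11 guanylyl cyclase genes in WT and 97.0%, 96.6% and 94.8% in TCKO. The highest count of the 9 cyclase genes other than Npr1 and Npr2 was 52, for the soluble cyclase subunit Gucy1a2 in TCKO replicate 3. Gucy1a2, the only one tested, had counts of 17, 25 and 3 for WT against 16, 18 and 52 for TCKO, and its log2 fold change of 0.98 ± 0.64 (SE) did not pass (edgeR adjusted p = 0.336). Nitric oxide synthases, which make the gas that activates soluble cyclases, had at most 4 counts, and 0 of 3 were tested.

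Of 15 listed genes for phosphodiesterases that hydrolyse cGMP or for their subunits, 6 were tested and none passed in either direction. Pde3a was the most abundant, with counts of 275, 405 and 227 for WT against 199, 211 and 127 for TCKO. Its genotypes did not overlap in CPM, and its log2 fold change was -0.69 ± 0.23 (edgeR adjusted p = 0.0783). Pde10a and Pde3b did not overlap in the other direction, with log2 fold changes of 0.54 ± 0.17 and 0.48 ± 0.20 (edgeR adjusted p = 0.0615 and 0.143). Pde5a, a cGMP-specific enzyme, stood at -0.28 ± 0.17 on the same scale (edgeR adjusted p = 0.296). Both efflux transporters, Abcc4 and Abcc5, were tested and did not pass, nor did Cngb1, the only tested gene of 6 for cGMP-gated channels.

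Of 10 genes for substrates and anchors of the kinases, 7 were tested and 1 rose. Vasp, an actin regulator and a classical substrate of cGMP kinases (chromosome 7, 19256929 to 19271817), had counts of 1163, 1384 and 1136 for WT against 1567, 1448 and 1600 for TCKO. Its level was 141, 138 and 138 CPM for WT against 179, 180 and 179 CPM for TCKO, without overlap. The log2 fold change was 0.37 ± 0.06 (SE; adjusted p = 0.00629, edgeR with Benjamini-Hochberg adjustment). When replicates 1 and 2 were summed, 2 samples against 2, neither Furin (log2 fold change 0.46 ± 0.11 SE, edgeR adjusted p = 0.115) nor Vasp (0.37 ± 0.11 SE, edgeR adjusted p = 0.147) passed. Csrp2, a LIM domain protein on the list of substrates, had a log2 fold change -0.21 ± 0.25 (edgeR adjusted p = 0.605), and without TCKO replicate 3 it was 0.06. The Gi alpha subunits that Npr3 can couple to were all tested and did not pass. Gnai2 was the most abundant gene of the list, with a mean of 186 RPKM in WT and 183 in TCKO and a difference of -0.03 ± 0.08 on the log2 scale (edgeR adjusted p = 0.851). Gnai3 had 72.6 and 74.1 RPKM and 0.03 ± 0.07 (edgeR adjusted p = 0.799).

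**Figure D4:**
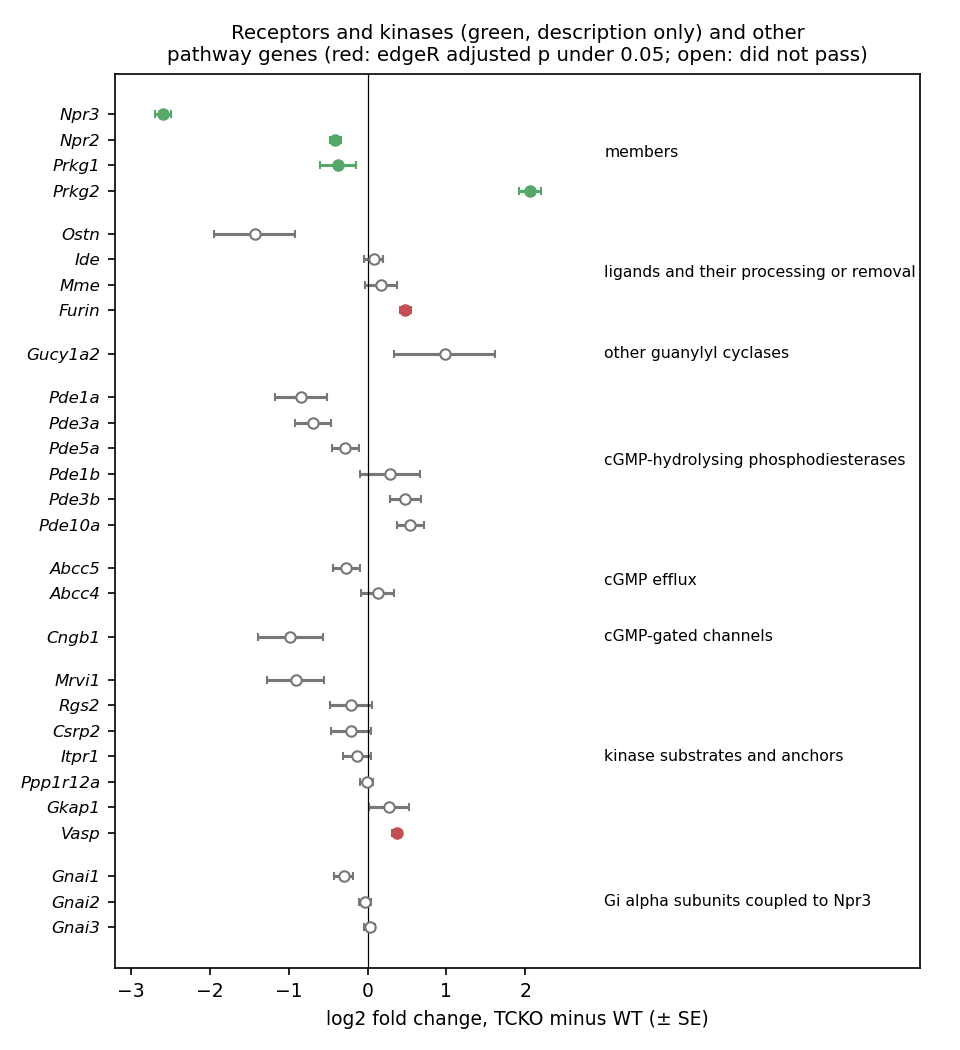
Log2 fold change (horizontal axis, TCKO minus WT, bars show the SE of the edgeR fit) of Npr2, Npr3, Prkg1 and Prkg2 in green and of the 24 tested genes of the cGMP route grouped by role, with those under an adjusted p of 0.05 in red and the others open. Npr3 (-2.59) and Prkg2 (2.06) lie outside the range of the other genes, and the red points are Furin (0.48) and Vasp (0.37).

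Markers of other cell types differed between the genotypes too. Of 9 chondrocyte markers, 8 were tested and all 8 were lower in TCKO (edgeR adjusted p under 0.05, the rule for the counts below too). The summed level of the 9 was 6357 to 8237 CPM in WT and 737 to 1007 CPM in TCKO. Col2a1 made up most of this sum, with means of 6452 CPM in WT and 738 CPM in TCKO, while Snorc was at 3 counts or fewer in every library. Npr2 and Npr3, which were lower in TCKO as well, and Prkg2, which was higher, stand beside the difference in chondrocyte markers. The part of that difference in their values was not tested. The osteoblast list summed to 40754 to 43599 CPM in WT and 22259 to 37010 CPM in TCKO. Col1a1 was the largest part of this sum, with means of 22334 CPM in WT and 14585 CPM in TCKO. Of the 8 tested genes of the osteoblast list, 4 were lower (Runx2, Alpl, Col1a1 and Sparc) and 1 was higher (Spp1). Spp1 had means of 1168 CPM in WT and 7165 CPM in TCKO. The smooth muscle and pericyte list, cells known for Prkg1, summed to 1908 to 2227 CPM in WT and 2352 to 2894 CPM in TCKO. Of its 7 tested genes, 2 were higher and 1 lower. Acta2 made up most of this sum, with means of 1879 CPM in WT and 2243 CPM in TCKO. Its genotypes overlapped and it did not pass (edgeR adjusted p = 0.179). The endothelial list, cells known for C-type natriuretic peptide, summed to 4.39 to 8.12 CPM in WT and 46.2 to 109 CPM in TCKO through Kdr and Flt1, while the defining markers Pecam1 and Cdh5 had at most 7 counts and Tie1 at most 2. The macrophage list summed to 66.9 to 116 CPM in WT and 26.2 to 60.7 CPM in TCKO, with 2 of 6 tested genes lower, and the Schwann cell and neuron list to 84.2 to 104 CPM in WT and 98.0 to 112 CPM in TCKO, with 1 of 4 higher and 1 lower. The part of these lists in the values of the 6 genes was not tested.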

How the data were processed

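RNA was measured in 3 WT and 3 TCKO libraries, grouped and numbered by their titles. The deposited values are raw counts per gene, not normalized. The submitters' processing notes name CASAVA, STAR 2.7.0e, featureCounts 2.0.0, DESeq2 and GRCm38, and libraries were made from polyA RNA with a directional kit. Strand use in counting and the treatment of shared reads are not given in the sources used here. No column was left unassigned (0 columns).

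The 6 genes, the pathway list and the marker lists were chosen with earlier results of these data known. Symbols were matched by gene identifier (99.4% of genes). Counts were fitted with edgeR 4.0.16 in R 4.3.3 (filterByExpr, TMM, quasi-likelihood test, genotype only, all 6 libraries, Benjamini-Hochberg adjustment over 13826 genes, which held between 99.7% and 99.8% of counts). A call required an adjusted p under 0.05, and a second count also over 2-fold. The fit was checked on simulated data with independent libraries. Replicates 1 and 2 of each genotype were nearly alike, so that check cannot show how well the p-values hold here. RPKM used the deposited exon lengths and TMM-scaled library sizes. Named genes are the 6 members, pathway genes past the threshold, the 5 pathway genes of highest RPKM in WT, the 2 most alike genes per tested member, and genes overlapping a member, besides those given as examples of a role. Promoter windows came from RefSeq.

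Alternatives were other scaling factors, 2 other filters, DESeq2 1.42.0, a replicate block, libraries left out, replicates 1 and 2 summed or used alone, and replicate 3 alone. Deviations of same-numbered WT and TCKO libraries from their group means correlated across genes at 0.20, 0.21 and 0.35, each over the 0.1 taken as a sign of pairing, so values fitted with the block are given where they change a call, and the main values are from the fit with genotype only. However, WT replicate 1 and TCKO replicate 2 (0.19) and WT replicate 2 and TCKO replicate 1 (0.22) correlated alike.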

Additional observations from a re-analysis of the deposited data

How the results depend on the processing

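Npr3, Npr2 and Prkg2 kept their direction in all 16 alternatives, with values on the log2 scale of -2.68 to -2.50, -0.47 to -0.29 and 1.55 to 2.27. Prkg1 kept it in 15 of 16. With replicate 3 alone, 1 library against 1, the values were -0.29 for Npr2, 0.44 for Prkg1 (reversed) and 1.55 for Prkg2. Unlike those of the other alternatives, these were differences in log2 of CPM plus 2, not fitted log2 fold changes. The count of pathway genes higher in TCKO was 2 with each library left out, 6 with replicates 1 and 2 only, and 0 with replicates 1 and 2 summed, with or without a replicate block. The count lower was 0 to 2 with a library left out, 2 without the filter, 1 with DESeq2, 4 with the replicate block, 1 (Pde3a) with the block on summed replicates, where Abcc5, Cngb1 and Ostn lost the call they had under the block, and 6 with replicates 1 and 2 only. Over 2-fold, 1 gene (Nppb) was higher without the filter and 1 with the study's RPKM filter, and 1 was lower without the filter, with the block and with replicates 1 and 2 only. At an adjusted p under 0.05, the counts over all 13826 tested genes moved too. They were 3121 higher and 3116 lower with replicates 1 and 2 only, and 217 and 169 with these summed. With the block they were 1664 and 1585, and 584 and 566 on summed replicates. With a library left out they ran from 603 to 1613 higher and from 550 to 1509 lower. DESeq2 gave 1260 and 1181, and no filter gave 1483 and 1428 of 26350 genes. Among the tested pathway genes, the block changed no call other than those of Pde3a, Abcc5, Cngb1 and Ostn. Furin and Vasp passed in 13 of 15 alternatives, and lost their calls with summed replicates (adjusted p = 0.115 and 0.147, edgeR) and with the block added (0.0672 and 0.0944), while their log2 fold changes were 0.46 and 0.37 in both. Their adjusted p over all alternatives ran from 5.0e-15 to 0.115 and from 5.9e-09 to 0.147 (edgeR at both ends). The lowest of each came from replicates 1 and 2 only, where the libraries of a genotype were nearly alike and may be technical repeats. Gnai2 (-0.06 to 0.01) and Csrp2 (-0.40 to 0.06) changed sign without TCKO replicate 3, and Csrp2 was 0.16 with replicates 1 and 2 only. Replicates 1 and 2 are close to each other, so the spread within a genotype rests largely on replicate 3. Depth limits Npr1 and Nppc, which were at or near the floor.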
